A study of Mus musculus with 8 samples.

Results

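Enzymes that tie matrix proteins together covalently were described here at the transcript level in MC3T3-E1, a mouse pre-osteoblast cell line derived from calvaria. The set held 10 genes of 3 enzyme families and was chosen with earlier results of these data known. It held the transglutaminases F13a1 and Tgm2, the lysyl oxidases Lox, Loxl1, Loxl2, Loxl3 and Loxl4, and the lysyl hydroxylases Plod1, Plod2 and Plod3. All 10 were found among the 55335 gene identifiers of the expression table. The study compared cells on TABS, named in the labels as a Trio-Active bone scaffold (4 libraries), with cells on HA, a magnesium-doped hydroxyapatite scaffold (4 libraries), after 3 days on either. RNA was sequenced, and each gene had an FPKM value per library, that is, fragments scaled to transcript length and to the size of the library. The sources used here do not give the composition of TABS. Both groups met a scaffold, so a difference can lie on either side. Columns were tied to groups by the library names in the labels (letter H for TABS, L for HA), which do not match the group names, and no gene in the data could test that tie. Separate cultures are not named for the replicates in the labels, so a p-value here rests on spread between libraries that may be only technical. In these bulk samples, fewer cells of a type and less RNA per cell cannot be told apart.

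Bone matrix gains strength when its proteins are joined by covalent bonds. Transglutaminases link a glutamine of a protein to a lysine of its neighbour. Lysyl oxidases are secreted copper enzymes that turn lysines and hydroxylysines of collagen and elastin into aldehydes, which then condense into crosslinks. Lysyl hydroxylases act earlier, inside the endoplasmic reticulum, where they hydroxylate collagen lysines and so set which kind of crosslink can form later.

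Transcripts of both transglutaminases and of 2 lysyl oxidases were higher on TABS than on HA, and none of the 10 enzymes was lower by the test. F13a1 stood 1.99 times, Tgm2 1.56 times, Loxl1 1.45 times and Loxl3 1.17 times as high in mean FPKM on TABS. Lox, by far the most abundant of the 10, stood at 227 ± 9.26 FPKM on TABS and 235 ± 13.5 on HA (SD, n = 4). No lysyl hydroxylase passed the test. The 9 enzymes with at least 1 FPKM in at least 4 libraries were tested with limma on log2(FPKM + 1) as part of a fit over 11280 genes (two-sided, threshold an adjusted p of 0.05). Of these 9, 4 passed as higher, 0 as lower and 5 did not pass. Over all genes tested, 7.38% passed, 4.49% as higher and 2.90% as lower. The set was chosen with earlier results known, so its count beside these shares is a description only. The remaining enzyme, Loxl2, was too low to test.

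**Figure D1:**
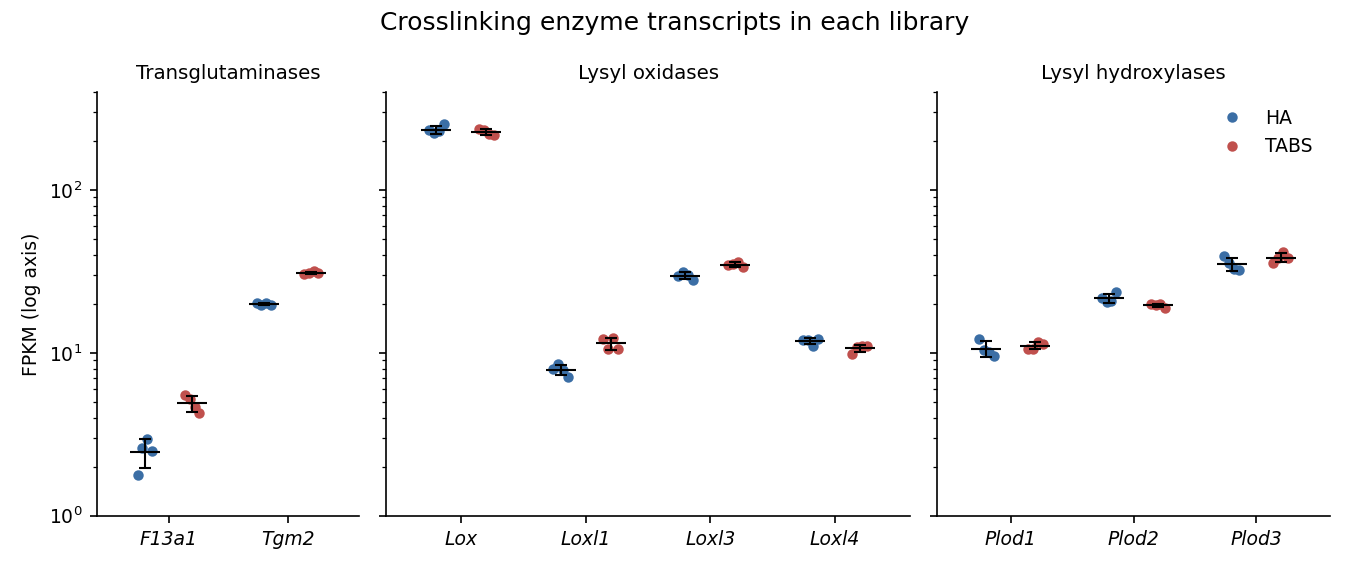
FPKM of the 9 tested enzymes in each library, on a log axis, with HA in blue and TABS in red. Each point is 1 library, and the black marks give the mean and SD of 4 libraries. The TABS points lie above the HA points for F13a1, Tgm2, Loxl1 and Loxl3, and Lox lies between 218 and 254 FPKM in all 8 libraries.

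The libraries were alike in the number of genes that reached 1 FPKM, at 11187 to 11357 in a library. Summed FPKM did not overlap between the groups, at 304893 to 307263 on TABS and 312629 to 317439 on HA. Genes of the mitochondrial genome took 10.2% to 12.2% of the sum on TABS and 12.1% to 14.5% on HA. The part of this shift in the results below was not tested. Of 9 osteoblast markers, 7 were at 1 FPKM or more in every library, with sums of 4970 to 5523 FPKM on TABS and 4792 to 5011 on HA. Groups did not overlap in 7 of the 9 (in 18.0% of all tested genes), and these markers went both ways. Ibsp (12.8 to 16.0 FPKM on TABS and 46.8 to 55.2 on HA), Sp7, Alpl, Sparc, Runx2 and Col1a1 were lower on TABS in every library, 6 in all. Spp1, the largest part of the sum, was the 1 that was higher, at 3083 to 3569 FPKM on TABS and 2082 to 2644 on HA. The part of these in the enzyme results was not tested. Macrophages and megakaryocytes also make F13a1, so their markers were read as well. Of 10 macrophage and monocyte markers, 8 were under 1 FPKM in every library, Itgam and Tyrobp were listed at 0, and Ptprc reached at most 0.0104 FPKM. Their summed level, which came almost wholly from Lyz2 and Cd14, was 19.0 to 24.1 FPKM on TABS and 24.0 to 26.6 on HA. Of 5 megakaryocyte markers, 4 were under 1 FPKM in every library, with Gp9 at 0, and Itga2b reached at most 1.003. Their sum was 1.08 to 1.53 FPKM on TABS and 1.55 to 1.86 on HA. Within the macrophage sum, Cd14 stood at 6.89 to 8.98 FPKM on TABS and 6.01 to 6.73 on HA, and Lyz2 at 10.7 to 15.9 and 17.6 to 19.8, so these went opposite ways. The part of either cell type in the level of F13a1 was not tested. All 5 endothelial and all 5 skeletal muscle markers were under 1 FPKM in every library, as were 4 of 5 adipocyte markers (not Fabp4) and 3 of 5 chondrocyte markers (not Sox9 and Col2a1).

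The RefSeq promoter table (build GRCm38.p6) held 4 of the 10 genes: F13a1, Loxl4, Plod1 and Plod3. The 250 bases before the annotated start are shown for 1 gene of each family, so that the letters behind the description can be read. Capitals mark matches, on either strand, to the AP-1 element TGANTCA, the TATA box TATAAA, the GC box GGGCGG or the CCAAT box CCAAT, and no matches overlapped in these windows. F13a1 is shown at the farther upstream of its 2 listed starts (chr13:37050245-37050494, minus strand), Loxl4 at chr19:42612807-42613056 (minus strand) and Plod1 at chr4:147936777-147937026 (minus strand).
F13a1: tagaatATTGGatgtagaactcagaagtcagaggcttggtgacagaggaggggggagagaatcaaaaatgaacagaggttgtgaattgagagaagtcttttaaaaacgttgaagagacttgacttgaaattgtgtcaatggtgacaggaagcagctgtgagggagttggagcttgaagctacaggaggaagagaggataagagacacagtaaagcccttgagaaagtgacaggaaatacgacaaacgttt
Loxl4: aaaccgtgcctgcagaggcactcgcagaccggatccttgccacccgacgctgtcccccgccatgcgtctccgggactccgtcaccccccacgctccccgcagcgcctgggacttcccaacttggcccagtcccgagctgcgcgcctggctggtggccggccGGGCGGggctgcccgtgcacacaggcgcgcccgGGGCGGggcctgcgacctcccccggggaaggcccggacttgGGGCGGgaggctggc
Plod1: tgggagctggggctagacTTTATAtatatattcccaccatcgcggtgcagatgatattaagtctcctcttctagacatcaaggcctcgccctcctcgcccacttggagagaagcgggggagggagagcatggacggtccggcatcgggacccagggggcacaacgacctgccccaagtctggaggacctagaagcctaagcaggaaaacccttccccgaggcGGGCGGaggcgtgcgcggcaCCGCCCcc
The F13a1 window had 42.8% G and C and 3 CpG pairs, against 76.0% and 27 for Loxl4 and 61.6% and 16 for Plod1. The window at the other listed start of F13a1, not shown, had 54.4% G and C, 4 CpG pairs and no match to any of these motifs. The F13a1 window shown held 1 CCAAT box, in reverse, and no GC box, while Loxl4 held 3 GC boxes and Plod1 held 2 GC boxes and 1 TATA box in reverse. Among 32841 windows of the same length, the median G and C content was 52.4%. In those windows a GC box was found in 32.7%, a CCAAT box in 33.9%, a TATA box in 12.4% and an AP-1 element in 6.8%. A match of letters is a description and not a binding site.

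F13a1 encodes the A chain of coagulation factor XIII, a transglutaminase that crosslinks fibrin in clots and is also made by osteoblasts. The gene (ENSMUSG00000039109) is protein-coding and lies on chromosome 13 from 36867178 to 37050244 of GRCm38, on the minus strand. Its FPKM was 5.53, 5.17, 4.64 and 4.25 in TABS 1 to 4 and 1.78, 2.61, 2.95 and 2.51 in HA 1 to 4. Every TABS library lay above every HA library. The mean was 4.90 ± 0.565 FPKM on TABS and 2.46 ± 0.493 on HA (SD, n = 4), with a log2 change of 0.78 ± 0.11 (SE, limma adjusted p = 0.00424). At this low level the pseudocount of 1 shrinks the change, which was 0.98 with a pseudocount of 0.1. Exons of F13a1 overlap those of the antisense gene Gm30489 over 74 bases, and Gm30489 reached at most 0.128 FPKM. F13a1 also shares stretches of 50 bases with 3 other genes, at most 11 of its 6687 with any of them.

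Tgm2 encodes tissue transglutaminase, which crosslinks matrix proteins and also binds fibronectin at the cell surface. It is protein-coding (ENSMUSG00000037820) and lies on chromosome 2 from 158116402 to 158146436, on the minus strand. Its FPKM was 30.5, 31.0, 31.6 and 31.0 in TABS 1 to 4 and 20.3, 19.7, 20.2 and 19.6 in HA 1 to 4. The spread within each group was small beside the distance between them. The means of 31.1 ± 0.437 FPKM on TABS and 19.96 ± 0.356 on HA (SD, n = 4) gave a log2 change of 0.61 ± 0.03 (SE, limma adjusted p = 0.000112). By unadjusted p, Tgm2 ranked 2 of the 11280 genes tested. Exons of Tgm2 overlap 370 bases of Rprd1b on the other strand, and Rprd1b stood at 2.03 to 2.80 FPKM on TABS and 2.22 to 2.63 on HA. They also overlap 633 bases of Gm20412 on the other strand, which reached at most 0.0151 FPKM.

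Together the transglutaminases summed to 35.9 ± 0.456 FPKM on TABS and 22.4 ± 0.528 on HA (SD, n = 4). Tgm2 made up 86.4% ± 1.47 of that sum on TABS and 89.0% ± 2.02 on HA. Its share ran from 84.7% to 87.95% on TABS and from 87.3% to 91.9% on HA, so the shares overlapped although both genes were higher. The log2 ratio of F13a1 to Tgm2 differed by 0.16 between the groups (exact permutation p = 0.343, two-sided). Another 8 genes were listed beside them, namely Tgm1, Tgm3, Tgm4, Tgm5, Tgm6, Tgm7, F13b and Epb42, and all were too low to test. F13b encodes the carrier chain of factor XIII, which is not a transglutaminase, and Epb42 an erythrocyte relative without enzyme activity. Tgm6 was listed at 0 in every library. Tgm5, the highest of these 8, had 0.37 to 0.77 FPKM on TABS and 0.24 to 0.48 on HA, ranges that overlapped.

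**Figure D2:**
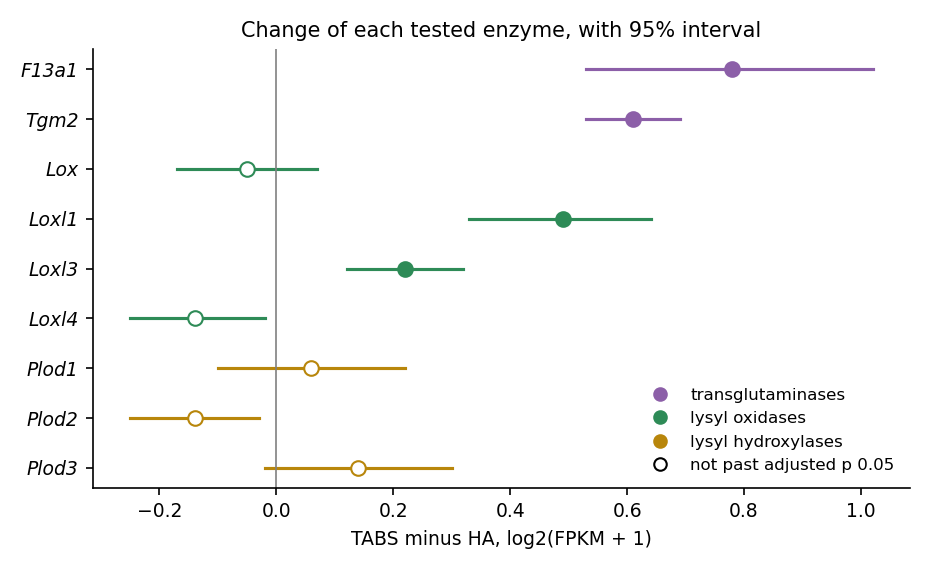
Difference between TABS and HA in log2(FPKM + 1) for each tested enzyme, with its 95% interval from limma (n = 4 libraries per group). Filled points passed an adjusted p of 0.05: F13a1 at 0.78, Tgm2 at 0.61, Loxl1 at 0.49 and Loxl3 at 0.22.

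Lox encodes the founding member of the lysyl oxidases and was the most abundant enzyme of the set. Its FPKM was 236, 234, 220 and 218 in TABS 1 to 4 and 233, 223, 229 and 254 in HA 1 to 4. The groups overlapped, and the log2 change of -0.05 had a 95% interval from -0.17 to 0.07 (limma adjusted p = 0.626).

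Loxl1, a relative of Lox known for its part in elastic fibre assembly, rose. The gene (ENSMUSG00000032334) is protein-coding and lies on chromosome 9 from 58287738 to 58313186, on the minus strand. Its FPKM was 12.2, 10.6, 12.3 and 10.6 in TABS 1 to 4 and 7.93, 8.52, 7.85 and 7.15 in HA 1 to 4. All TABS values lay above all HA values, with means of 11.4 ± 0.967 and 7.86 ± 0.561 FPKM (SD, n = 4). The log2 change was 0.49 ± 0.07 (SE, limma adjusted p = 0.00397). No exon of another gene overlaps Loxl1 in the annotation.

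Loxl3 encodes a lysyl oxidase with scavenger receptor domains ahead of its catalytic domain, as do Loxl2 and Loxl4. It is protein-coding (ENSMUSG00000000693) and lies on chromosome 6 from 83034173 to 83052562, on the plus strand. Its FPKM was 34.5, 35.3, 36.2 and 33.55 in TABS 1 to 4 and 29.7, 31.4, 30.03 and 27.97 in HA 1 to 4. The groups did not overlap, and the means of 34.9 ± 1.13 and 29.8 ± 1.42 FPKM (SD, n = 4) gave a log2 change of 0.22 ± 0.05 (SE, limma adjusted p = 0.0217). This call was lost without TABS 1, TABS 2, TABS 3 or HA 3 (adjusted p = 0.0555, 0.062, 0.0691 and 0.0532) and in the fits with a replicate block, alone (0.071) or with a correction for GC content and length (0.0591). Exons of Loxl3 overlap 535 bases of Htra2 on the other strand, whose own level was 7.77 to 9.10 FPKM on TABS and 8.80 to 10.5 on HA.

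Loxl4 stood at 9.79, 10.85, 10.97 and 10.99 FPKM in TABS 1 to 4 and at 12.06, 11.91, 11.02 and 12.18 in HA 1 to 4. Every TABS value was below every HA value, though the closest pair (TABS 4 and HA 3) differed by less than the SD of either group (0.576 and 0.529). The log2 change of -0.14 (95% interval -0.25 to -0.02) did not pass (limma adjusted p = 0.144). Loxl2 was listed at 0.0203, 0.00942, 0.0287 and 0.000603 FPKM in TABS 1 to 4, at 0 in HA 1 and HA 4, and at 0.0174 and 0.00771 in HA 2 and HA 3. Of its 5356 different stretches of 50 bases, 2299 also occur in the pseudogene Gm21451. Gm21451 was listed at 0 in every library, and no source used here says how the authors counted reads that match several places, so the level of Loxl2 is uncertain. No stretch of 50 bases is shared between any of the 10 enzymes themselves.

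The lysyl oxidase family as a whole summed to 284 ± 9.22 FPKM on TABS and 284 ± 11.9 on HA (SD, n = 4). Shares within that sum are given as a description with no test. Lox took 79.9% ± 0.879 of the sum on TABS and 82.6% ± 1.30 on HA, with ranges of 78.7% to 80.7% and 81.2% to 84.3% that did not overlap. Loxl1 took 4.03% ± 0.33 and 2.78% ± 0.30, and Loxl3 12.3% ± 0.485 and 10.5% ± 0.901, again without overlap. Loxl4 took 3.76% ± 0.299 and 4.15% ± 0.175, with ranges of 3.35% to 4.03% and 3.97% to 4.33% that overlapped.

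Whether members of a family changed unequally was tested on the log2 ratio of each pair, with 1 added to each FPKM, with an exact permutation test over 70 assignments of the libraries. There were 10 such pairs, and the smallest p this design allows is 0.0286. The groups did not overlap in 5 of the 6 lysyl oxidase pairs, each with an exact permutation p = 0.0286 and adjusted p = 0.0571 over the 10 pairs, so none passed 0.05 after adjustment. At the smallest p, the adjusted p of a pair depends on how many pairs reach it and not on the size of its difference. Without HA 1, these 5 pairs, Plod1 against Plod2 and Plod2 against Plod3 had an adjusted p of 0.0408. The largest of these differences was for Loxl1 against Loxl4, whose log2 ratio was 0.09 ± 0.16 on TABS and -0.53 ± 0.12 on HA (SD, n = 4), a difference of 0.62. The ratio of Lox to Loxl1 was lower on TABS by 0.53 and that of Lox to Loxl3 by 0.27. The ratio of Loxl1 to Loxl3 was higher by 0.26 and that of Loxl3 to Loxl4 by 0.36. In the sixth pair, Lox against Loxl4, the difference of 0.09 lay within overlapping groups (exact permutation p = 0.286).

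**Figure D3:**
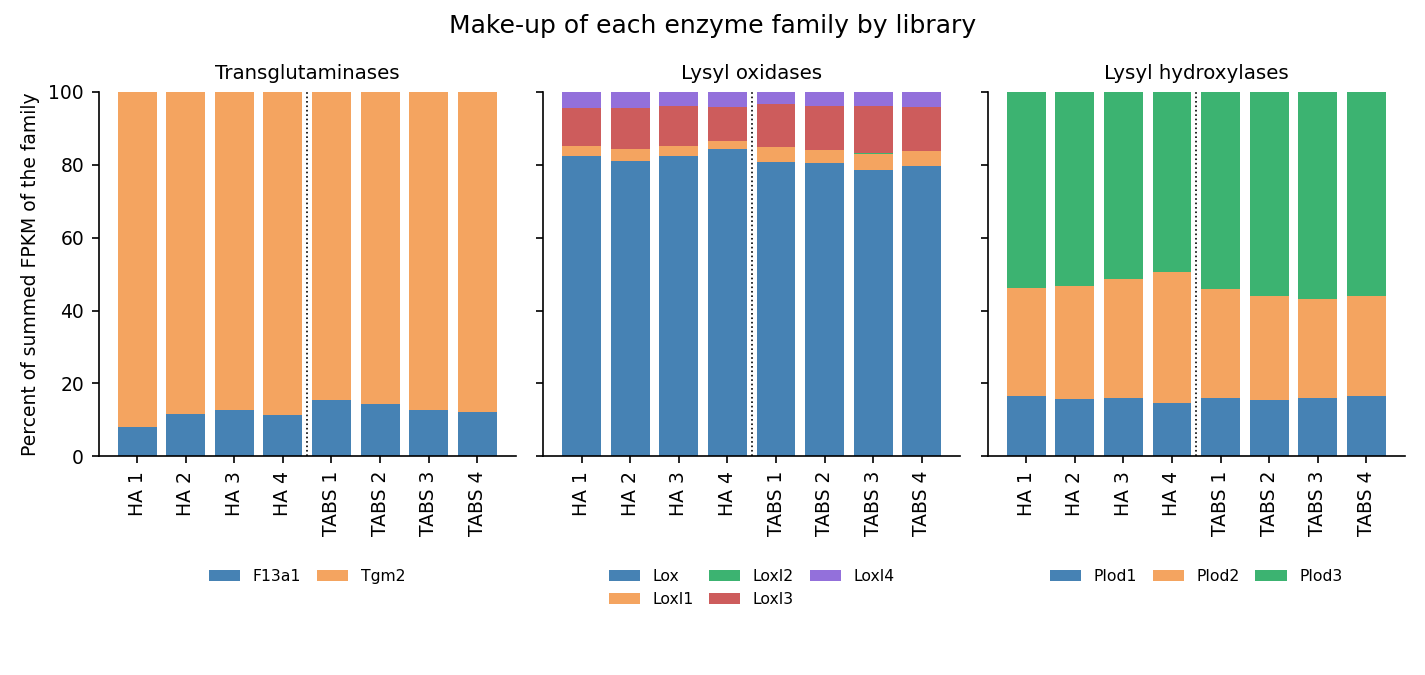
Share of each gene in the summed FPKM of its family, in percent, for each library, with HA on the left and TABS on the right of the dotted line. Lox fills 78.7% to 84.3% of the lysyl oxidase bar in every library, and Loxl2 is too low to be seen.

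Lysyl hydroxylases did not pass the test in either direction. Plod1, which acts mainly on lysines of the collagen triple helix, stood at 10.6, 10.6, 11.7 and 11.4 FPKM in TABS 1 to 4 and at 12.2, 10.5, 10.2 and 9.57 in HA 1 to 4. These groups overlapped (log2 change 0.06, 95% interval -0.10 to 0.22, limma adjusted p = 0.673). Plod2, which acts on lysines of the collagen telopeptides, stood at 19.9, 19.6, 19.9 and 18.9 FPKM in TABS 1 to 4 and at 21.8, 20.6, 20.7 and 23.5 in HA 1 to 4. All TABS values lay below all HA values for Plod2, with a log2 change of -0.14 (95% interval -0.25 to -0.03) that did not pass (limma adjusted p = 0.128). Plod3, which also adds sugars to hydroxylysine, stood at 35.7, 38.4, 41.6 and 38.3 FPKM in TABS 1 to 4 and at 39.5, 35.5, 32.7 and 32.2 in HA 1 to 4. HA 1 lay within the TABS range, and the log2 change was 0.14 (95% interval -0.02 to 0.30, limma adjusted p = 0.28). Exons of Plod3 overlap 529 bases of Znhit1 and those of Plod2 346 bases of Gm38391, each on the other strand. Znhit1 stood at 11.3 to 16.1 FPKM on TABS and 13.2 to 14.6 on HA, and Gm38391 reached at most 0.605. The part of Znhit1 reads in the level of Plod3 was not tested. Plod1 shares stretches of 50 bases with 80 other genes, at most 20 of its 6873 with any of them. Groups without overlap were found in 6 of the 9 tested enzymes (4 higher and 2 lower), where 18.0% of all tested genes had them (10.8% higher and 7.15% lower).

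Plod3 made up the largest part of the lysyl hydroxylase sum, with 55.7% ± 1.21 on TABS and 52.0% ± 2.02 on HA, and Plod2 made up 28.4% ± 1.29 and 32.3% ± 2.76 (SD, n = 4). The family sum was 69.1 ± 2.89 FPKM on TABS and 67.3 ± 4.36 on HA. The log2 ratio of Plod2 to Plod3 was -0.94 ± 0.09 on TABS and -0.67 ± 0.17 on HA (SD, n = 4, exact permutation p = 0.0571, adjusted p = 0.0952 over the 10 pairs). Neither Plod1 against Plod2 (difference 0.19) nor Plod1 against Plod3 (-0.08) passed (exact permutation p = 0.0857 for each, adjusted p = 0.107).

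FPKM is scaled by transcript length, so levels of different genes can be set side by side. On TABS, Lox at 227 FPKM was followed by Plod3 (38.5), Loxl3 (34.9), Tgm2 (31.1), Plod2 (19.6), Loxl1 (11.4), Plod1 (11.0), Loxl4 (10.7), F13a1 (4.90) and Loxl2. Library ranges of neighbours overlapped for Plod3 and Loxl3, for Loxl1 and Plod1, and for Plod1 and Loxl4. Within each TABS library Plod3 still lay above Loxl3, closest in TABS 1 at 35.7 and 34.5 FPKM. For Loxl1 and Plod1, and for Plod1 and Loxl4, the order changed between TABS libraries. On HA the order was Lox (235 FPKM), Plod3 (35.004), Loxl3 (29.8), Plod2 (21.7), Tgm2 (19.96), Loxl4 (11.8), Plod1 (10.6), Loxl1 (7.86), F13a1 (2.46) and Loxl2. There only Loxl4 and Plod1 overlapped among neighbours. Tgm2 thus stood above Plod2 on TABS and below it on HA. Loxl1 stood at the level of Loxl4 and Plod1 on TABS and below both on HA.

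Collagen enters these reactions after it has been modified and folded in the endoplasmic reticulum. Of 14 genes of collagen lysine and proline modification and folding, 13 were tested and 0 passed in either direction (median log2 change 0.00, against 0.01 over all tested genes). Over all tested genes 7.38% passed, so 0 of 13 is not far from that share. Counts in this and the other short lists are a description only. The nearest were Fkbp10, a chaperone needed for telopeptide lysine hydroxylation (133 ± 5.28 FPKM on TABS and 150 ± 8.24 on HA, SD, n = 4, limma adjusted p = 0.087), Crtap, a subunit of the prolyl hydroxylation complex (117 ± 4.85 and 130 ± 7.43, 0.116), and the prolyl hydroxylase gene P3h2 (21.7 ± 0.66 and 20.2 ± 0.734, 0.187). After correction for transcript GC content and length, 3 of the 13 were lower, Fkbp10 (limma adjusted p = 0.00862), Crtap (0.0116) and P3h4 (0.0414).

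Procollagen and pro-lysyl oxidases are trimmed by proteases outside the cell, with Bmp1 acting on both. Of 8 such genes 5 were tested, 1 rose and 1 fell (median log2 change 0.07). Of all tested genes, 4.49% rose and 2.90% fell. Pcolce2, an enhancer of procollagen C-propeptide removal, fell from 8.68 ± 0.691 FPKM on HA to 4.77 ± 0.0692 on TABS (SD, n = 4, log2 change -0.74, limma adjusted p = 0.00034). Adamts14, an aminopropeptidase of procollagen, rose from 5.31 ± 0.149 to 7.12 ± 0.471 FPKM (log2 change 0.36, limma adjusted p = 0.00406). Adamts2 stood at 12.1 ± 0.291 FPKM on TABS and 11.2 ± 0.653 on HA and did not pass (limma adjusted p = 0.226), and Tll2 and Adamts3 were listed at 0 in every library. Lysyl oxidases need copper, and of 6 genes of copper handling 5 were tested and 0 passed, where 7.38% of all tested genes did. The copper pump gene Atp7a came nearest (4.62 ± 0.215 and 5.17 ± 0.288 FPKM, limma adjusted p = 0.14), ahead of the importer gene Slc31a1 (0.492) and of Memo1 (0.493).

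Among genes of lysyl oxidase scaffolds and elastic fibres, 2 of 11 tested rose and 3 fell (15 in the list, median log2 change 0.01). The shares over all tested genes were 4.49% and 2.90%. Fbln5, which brings Loxl1 to elastic fibres, fell from 66.6 ± 2.21 to 55.4 ± 2.01 FPKM (SD, n = 4, log2 change -0.26, limma adjusted p = 0.00788, 0.0631 with the replicate block and 0.076 with the GC and length correction as well). The microfibril gene Mfap5 fell from 1.57 ± 0.0547 to 1.02 ± 0.0648 FPKM (-0.35, limma adjusted p = 0.00342). Fmod, a collagen-binding proteoglycan gene, fell from 273 ± 27.1 to 210 ± 3.97 FPKM (-0.37, limma adjusted p = 0.0127). The latent TGF-beta binding protein genes Ltbp3 (from 43.5 ± 2.65 to 55.0 ± 0.999 FPKM, 0.33, limma adjusted p = 0.00458) and Ltbp4 (0.30, 0.0268) rose, and the call on Ltbp4 was lost without TABS 1, TABS 3, HA 3 or HA 4 (0.0633 to 0.076), with no filter on low values (0.0691) and with the replicate block, alone (0.0888) or with the GC and length correction (0.0596). Eln, the elastin gene, stood at under 0.01 FPKM in every library.

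**Figure D4:**
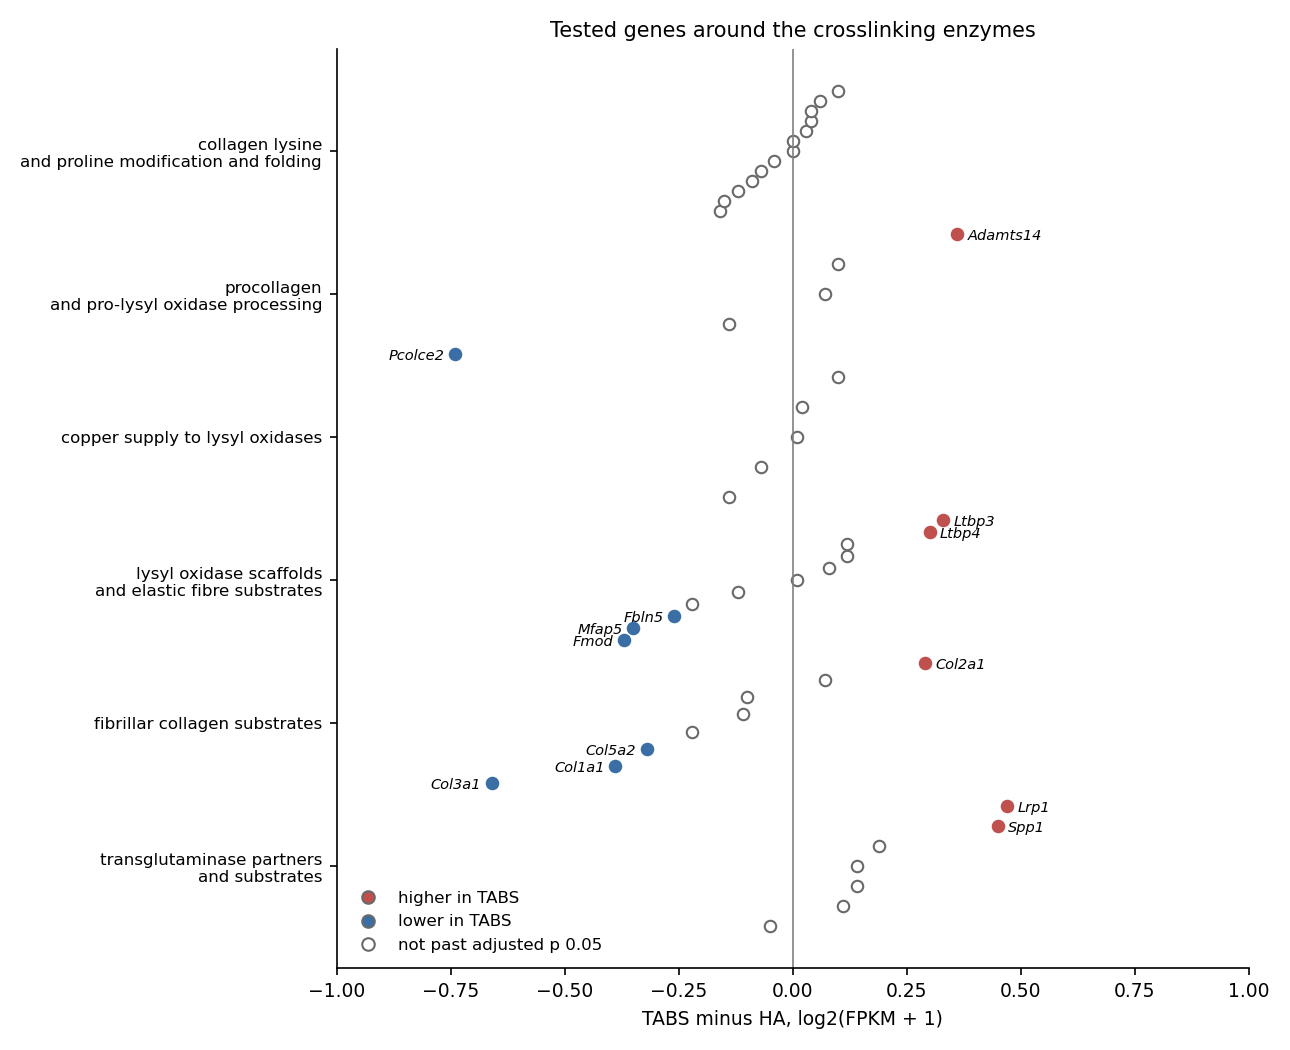
Difference between TABS and HA in log2(FPKM + 1) for each tested gene of 6 lists around the crosslinking enzymes. Each point is 1 gene, red and blue points passed an adjusted p of 0.05 as higher or lower, and no point of the collagen modification and copper lists did. Of all tested genes, 7.38% passed.

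Of 9 fibrillar collagen genes, the main substrates of lysyl oxidases, 8 were tested, 3 fell and 1 rose (median log2 change -0.16). Over all tested genes, 2.90% fell and 4.49% rose. Those that fell were Col3a1 (log2 change -0.66), Col5a2 (-0.32) and Col1a1 (-0.39, limma adjusted p = 0.0269), with the call on Col1a1 lost without any of the 4 TABS libraries or HA 2 (0.0559 to 0.0743), with no filter (0.107), with quantile normalization (0.074) and with the replicate block (0.0932). The count that fell was then 2. Col2a1 rose by 0.29 on the log2 scale (limma adjusted p = 0.0393), a call lost without any single library except HA 2 (0.0547 to 0.102), with no filter (0.098) and with the replicate block, alone (0.0969) or with the GC and length correction (0.0811). Of 10 partners and substrates of transglutaminases 7 were tested, 2 rose and 0 fell (median log2 change 0.14), beside the same shares over all tested genes. Lrp1, a receptor that takes up Tgm2 from the cell surface, rose from 110 ± 8.47 to 153 ± 5.62 FPKM (SD, n = 4, log2 change 0.47, limma adjusted p = 0.00257). Spp1, the osteopontin gene, also rose (0.45, limma adjusted p = 0.0207), a call lost without TABS 1, TABS 2 or HA 2 (0.057 to 0.0633), with no filter (0.164) and with the replicate block (0.103). Where a call on Ltbp4, Col2a1 or Spp1 was lost, its list held 1 gene fewer that rose. Sdc4, a heparan sulfate co-receptor gene, stood at 81.0 ± 2.32 FPKM on TABS and 73.5 ± 1.46 on HA (limma adjusted p = 0.0591). Its change passed as higher with the filter of 5 FPKM (limma adjusted p = 0.0484) and after rescaling to TPM (0.0237). Fn1, the gene of fibronectin, stood at 1269 ± 3.82 and 1115 ± 92.0 FPKM and did not pass (limma adjusted p = 0.109), although every TABS library was above every HA library.

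**Figure D5:**
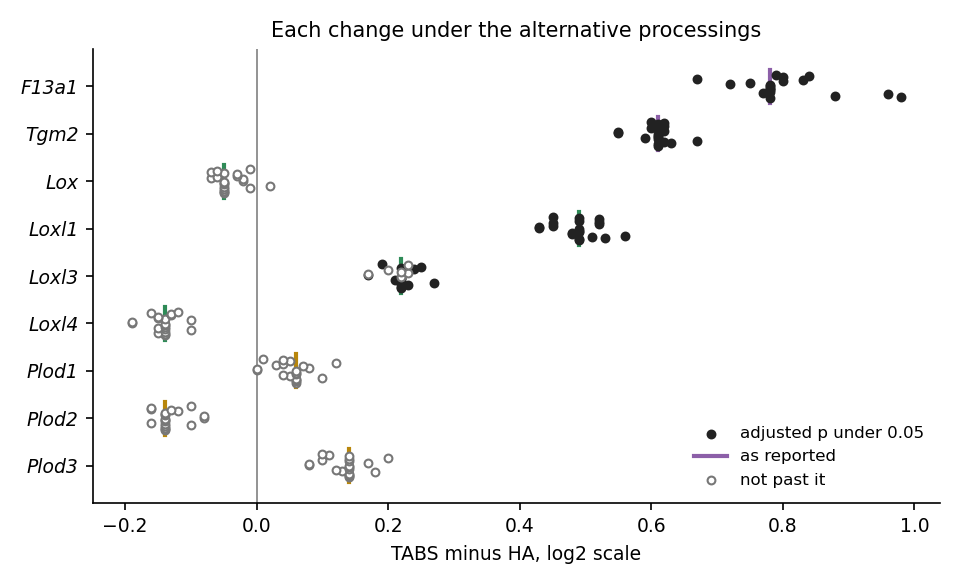
Log2 change of each tested enzyme under each alternative processing (1 point each, filled where the adjusted p was under 0.05), with a coloured bar for the value as reported. All points of F13a1, Tgm2 and Loxl1 are filled, and 14 of the 20 of Loxl3 are.

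Likeness to F13a1 and Loxl1 was ranked among tested protein-coding genes, with predicted gene models left out. Of these, the genes whose log2(FPKM + 1) ran most like F13a1 over the 8 libraries were the transcription factor genes Zic2 (Pearson r = 0.996) and Elk3 (0.991) and the ubiquitin ligase gene Peli2 (0.995). Those most like Loxl1 were Ttyh3 (0.990), Mllt1 (0.988) and Zswim4 (0.986). All 6 passed the test as higher on TABS, and the 8 points of each correlation fall into the same 2 groups of 4. These correlations are a description without a test.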

How the data were processed

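Total RNA from 8 libraries was sequenced as paired reads, per the labels' protocols. The authors deposited 1 FPKM value per gene and library, a length- and depth-scaled unit that is not a read count. The build GRCm38 and the tools fastp, STAR and DESeq2 were named, per the submitters' processing notes. No source used here gives the program behind FPKM, its annotation or whether strand was used. Reads of overlapping genes on opposite strands therefore cannot be told apart; overlaps were checked for the 10 enzymes alone. Among low FPKM values multiplied by length, 28.9% to 31.0% per library were within 0.02 of a whole multiple of the best step. Whole reads could thus not be recovered for most of these values, the depth is unknown, and neither count tests nor counting intervals are given. The share that chance alone would give was not computed.

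GENCODE M21 (GRCm38) matched 55154 of 55335 identifiers. Genes with at least 1 FPKM in at least 4 libraries (11280) entered a limma fit (version 3.58.1, R 4.3.3) on log2(FPKM + 1), with variances that follow the level, two-sided, with Benjamini-Hochberg adjustment over all of them. The script was tested on simulated data. Ratios between members of a family were compared by exact permutation tests, two-sided. Alternatives changed the filter, pseudocount, scaling, variance model, GC and length correction and replicate block, or left out 1 library each. Named genes were the 10 enzymes, up to 3 tested genes per list by smallest adjusted p, and genes listed at 0. The 3 tested protein-coding genes most like F13a1 and the 3 most like Loxl1, without predicted gene models, were named as well. P3h4, Ltbp4, Fmod, Col2a1, Fn1, Eln, Tgm5 and single cell type markers were named after their values were seen. The members and lists were chosen with earlier results of these data known.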

Additional observations from a re-analysis of the deposited data

Results flagged for a closer look

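Among 62 groups of 4 libraries (31 named genes in 2 groups each), 2 held a library whose gap to its nearest neighbour took up more of the group's range than the 95% limit of Dixon's test allows, where chance gives about 1 in 20. Loxl4 stood at 9.79 FPKM in TABS 1 and at 10.9 to 10.99 in the other TABS libraries, and without TABS 1 its log2 change was -0.10 (limma adjusted p = 0.281), against -0.14 with it. Atp7a stood at 4.30 FPKM in TABS 3 and at 4.71 to 4.75 in the other TABS libraries.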

How the results depend on the processing

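F13a1 (19 alternatives), Tgm2 and Loxl1 (20 each) stayed higher and past the threshold in every one, with log2 changes of 0.67 to 0.98, 0.55 to 0.67 and 0.43 to 0.56 and limma adjusted p up to 0.0353, 0.00901 and 0.026. Loxl3 passed in 14 of 20 (0.17 to 0.27). The members higher or lower in TABS stayed within 1.5 times of 4 and 0. Lox, Loxl4, Plod1, Plod2 and Plod3 passed in 0 of 20, and Lox changed sign with quantile normalization (0.02). The 506 genes higher and 327 lower on TABS became 915 higher after rescaling to TPM (79.3% of calls higher, against 60.7%), and 195 lower with no filter. With the replicate block they became 136 and 94, or 165 and 153 with the GC and length correction as well. With 1 library left out they ran from 247 to 429 higher and from 168 to 289 lower. Same-numbered libraries did not deviate together (correlations of -0.10 to 0.10), so the numbers are not taken to pair the samples; of the enzymes, the replicate block ended the call on Loxl3 alone. The filter of 5 FPKM left F13a1 out. Of the 10 pair ratios, 7 passed without HA 1 and 0 without any other library, counts that depend on how many pairs reached the smallest p together. With 1 library left out, the difference ran from -0.59 to -0.46 for Lox against Loxl1, -0.32 to -0.20 for Lox against Loxl3, 0.23 to 0.30 for Loxl1 against Loxl3, 0.55 to 0.67 for Loxl1 against Loxl4, 0.31 to 0.39 for Loxl3 against Loxl4, 0.11 to 0.25 for Plod1 against Plod2 and -0.33 to -0.20 for Plod2 against Plod3. Of the lists, collagen modification had 3 lower after the GC and length correction and 1 with the replicate block as well, against 0. Scaffolds and elastic fibres had 1 higher, against 2, with no filter, with the replicate block alone or with the GC and length correction, and 1 to 2 with a library left out. Fibrillar collagens had 0 higher, against 1, in the same 3 fits and 0 to 1 with a library left out. Transglutaminase partners had 1 higher, against 2, with no filter or the replicate block and 1 to 2 with a library left out. They had 3 with the filter of 5 FPKM, with TPM or with quantile normalization. Scaffolds had 3 higher with TPM. After the GC and length correction 4 scaffold genes and 4 fibrillar collagens were lower, against 3 each. Scaffold genes lower were also 4 with variances that do not follow the level. They were 2 with the filter of 5 FPKM or the replicate block, alone or with the GC and length correction. The cause of these changes was not tested. No read depth was known, so what depth limits could not be given.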
